A study of Mus musculus with 2 samples.

Results

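The genes described here fold, modify and dispose of proteins in the endoplasmic reticulum (ER), or sense when that work falls behind. They are 36 named genes, chosen by symbol, and all 36 were found among the 21983 entries of the deposited count table. They were measured in 14837, a line of mouse pancreatic ductal adenocarcinoma (PDAC), the common cancer of the pancreas, from the C57BL/6 strain. The line was cultured in DMEM containing 10% serum (FBS) and penicillin, and then exposed for 48 h to conditioned medium, which is medium that other cells have already grown in. According to the labels, 1 culture received medium from CAFs (cancer-associated fibroblasts, which surround the tumour cells in this disease) and another received medium from 14837 itself, with 1 library each. By its heading, the CAF column of the table belongs to the first of these. The heading of the other value column matched neither library and it was not used, so the media were not compared and every value below is a level in cells kept in CAF medium. With 1 library from a single line there is no replicate error and no test. Levels do not show whether a stress response was on or off.

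Secreted and membrane proteins enter the ER as they are made, and chaperones, glycan-modifying enzymes and disulfide isomerases help them fold there. Chains that fail are passed back to the cytosol and broken down by the proteasome, a route called ER-associated degradation. When unfolded chains pile up, the sensors IRE1 (gene Ern1), PERK (Eif2ak3) and ATF6 start the unfolded protein response, which raises the folding and degradation genes and slows translation. ATF6 and the spliced form of XBP1 act on the ER stress element (ERSE) in promoters, which was first described in chaperone genes such as Hspa5. The pancreas is known for its heavy secretory load and its reliance on this response.

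The promoters are shown first, since some of these genes share the ERSE. The ERSE was searched as CCAAT, then 9 bases of any kind, then CCACG, on both strands of the RefSeq promoter windows of build GRCm38.p6 (mm10), which run from 250 bases before the transcription start to 50 after it. Of the 36 genes, 31 matched a window, with Ero1lb under its newer symbol Ero1b. Atf6, Derl1, Hyou1, Manf and Sil1 had no entry. An exact ERSE was present in 10 of the 31 genes (32.3%), against 37 of all 27025 genes with a window (0.137%). Among the 9102 other genes that had a window and at least 10 counts in this library, 8 held one (0.0879%). These genes were listed for their part in the stress response, and the element was defined on some of them, so the difference describes the list and is not an independent result. The elements are written below in their own direction with 10 bases on either side, and the capitals mark the fixed bases.
Hspa5 (chr2:34772015-34772053, plus strand): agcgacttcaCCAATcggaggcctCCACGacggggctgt
Calr (chr8:84847065-84847103, plus strand): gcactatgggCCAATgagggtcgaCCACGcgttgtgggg
Hsp90b1, distal (chr10:86705628-86705666, minus strand): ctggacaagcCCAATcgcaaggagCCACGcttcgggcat
Hsp90b1, proximal (chr10:86705523-86705561, plus strand): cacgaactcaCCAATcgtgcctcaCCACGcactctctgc
Pdia6 (chr12:17266481-17266519, plus strand): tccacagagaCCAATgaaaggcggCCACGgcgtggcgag
Creld2 (chr15:88819510-88819548, minus strand): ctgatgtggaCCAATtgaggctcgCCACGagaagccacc
Canx (chr11:50325790-50325828, minus strand): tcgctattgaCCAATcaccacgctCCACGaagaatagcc
Syvn1 (chr19:6046522-6046560, plus strand): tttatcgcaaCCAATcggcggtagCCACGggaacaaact
Dnajc3 (chr14:118937817-118937855, plus strand): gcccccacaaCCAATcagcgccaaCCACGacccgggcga
Ero1lb (chr13:12565672-12565710, minus strand): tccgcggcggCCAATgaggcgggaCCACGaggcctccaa
Derl3 (chr10:75893232-75893270, minus strand): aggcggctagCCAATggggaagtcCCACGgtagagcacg

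Hsp90b1 was the only one of the 31 with a pair of exact elements, facing opposite ways at 212 to 194 and 107 to 89 bases before its start. The Hspa5 element lay 65 to 47 bases and the Syvn1 element 44 to 26 bases before the start. Among the genes with 1 element, the farthest was that of Ero1lb, 201 to 183 bases before it. All these distances are from the RefSeq start, and the gene models used for the levels below can start elsewhere. The Hspa5 model begins at 34771970, so the Hspa5 element lies inside it. The Hsp90b1 model starts at 86705509 on the minus strand, nearer to both elements. In 6 genes an element pointed in the direction of transcription, namely Hspa5, Hsp90b1, Pdia6, Canx, Syvn1 and Dnajc3. In Calr, Creld2, Derl3 and Ero1lb it pointed the other way. The 250 bases before the RefSeq start are shown for the gene with the highest level and for the gene with 2 elements. They are written in the direction of the gene, with the fixed bases of each ERSE in capitals on the strand printed. For Hspa5 they run into the gene model.
Hspa5 (chr2:34771840-34772089, plus strand): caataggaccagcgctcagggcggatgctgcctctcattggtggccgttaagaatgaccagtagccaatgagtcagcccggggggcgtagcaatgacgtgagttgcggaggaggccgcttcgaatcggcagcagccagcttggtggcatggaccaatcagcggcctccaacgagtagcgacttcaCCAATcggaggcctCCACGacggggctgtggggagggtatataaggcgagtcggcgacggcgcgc
Hsp90b1 (chr10:86705445-86705694, minus strand): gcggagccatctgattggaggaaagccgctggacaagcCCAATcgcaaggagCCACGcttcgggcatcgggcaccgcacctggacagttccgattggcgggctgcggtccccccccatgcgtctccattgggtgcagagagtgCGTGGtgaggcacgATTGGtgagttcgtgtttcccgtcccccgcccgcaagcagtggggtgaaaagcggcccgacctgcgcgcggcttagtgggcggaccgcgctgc

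**Figure D1:**
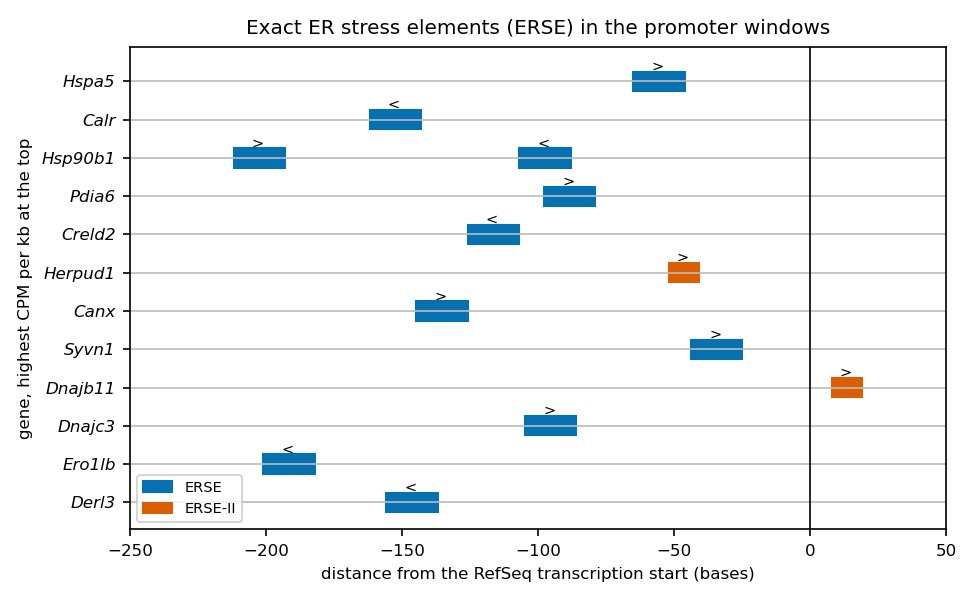
Position of exact ERSE (blue) and ERSE-II (orange) matches in the promoter windows of the 12 genes that hold one, with genes ordered by level and distance from the RefSeq transcription start in bases on the horizontal axis. The marks > and < give the direction of the element relative to the gene; Hsp90b1 has 2 elements, and the Dnajb11 element lies after the start.

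A second, shorter form of the element, ERSE-II, was searched as ATTGG, any 1 base, then CCACG, on both strands. It was found in Herpud1 and Dnajb11, or 6.45% of the 31 genes, against 12 of all 27025 genes (0.0444%) and 0.0659% of other genes with at least 10 counts. In Herpud1 it lay 52 to 42 bases before the start, and in Dnajb11 8 to 18 bases after it. Neither gene held an exact ERSE. With 9 bases on either side and the fixed bases in capitals, the sequences read as follows.
Herpud1 (chr8:94386368-94386396, plus strand): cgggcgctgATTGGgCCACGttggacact
Dnajb11 (chr16:22857843-22857871, plus strand): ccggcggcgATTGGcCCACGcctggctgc

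Among these genes, the parts of the ERSE were found mostly at the spacing of 9 bases. Each of the 5-base parts was common on its own. CCAAT, whose reverse complement is the first part of ERSE-II, was in 26 of the 31 genes (83.9%), 41.1% of all genes and 43.2% of other genes with at least 10 counts, and CCACG, which is also the second part of ERSE-II, in 26 of 31, 35.5% of all genes and 52.8% of those others. When the parts were searched in the ERSE order on 1 strand with 0 to 20 bases between them, 10 of the 31 genes had a spacing of 9. Canx with 2 bases, P4hb with 6, Derl2 with 19 and Sdf2l1 with 20 were the only matches at any other spacing. Among genes outside the 36, 27 had the spacing of 9, close to the 25 with a spacing of 19, and the other spacings ran down to 5 genes. Allowing 1 mismatch in the fixed bases added Derl2, Herpud1, Pdia3, Pdia4, Sel1l and Vcp, for 16 of 31 genes, and raised the share to 1.72% of all genes and 2.33% of other genes with at least 10 counts. The 8-base unfolded protein response element TGACGTGG, which holds CCACG on its other strand and was also searched on both, was found in Vcp alone of the 31, in 0.714% of all genes and in 1.07% of other genes with at least 10 counts. The cAMP response element TGACGTCA, which differs from it in the last bases, was in none of the 31, in 2.03% of all genes and in 3.79% of those others. Base composition of the windows was similar, with a median GC content of 63.0% in the 31 genes and 61.0% in other genes with at least 10 counts.

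Most of the 36 genes were above the median gene in CAF medium, and the chaperone Hspa5 was the highest of them. The CAF-medium library held 21269197 counts, and 11569 entries had at least 10. Each count was divided by that total to give counts per 1000000 (CPM), and CPM was divided by the exon length in kilobases (kb) to compare genes with each other. Intervals in parentheses are 95% intervals of the count (exact Poisson) and hold no error other than counting. All 36 genes had at least 10 counts, as did 52.6% of all entries with a unique symbol. Their median was 230 CPM, against 37.9 CPM for the median gene, defined over genes that reached 10 counts. Of the 36, 30 were at or above the median gene in CPM and 31 in CPM per kb, where the background is 50.0% by construction. In CPM per kb, 18 of the 36 were among the top 10.0% of genes with at least 10 counts, which began at 45.8 CPM per kb. At least 100 CPM was reached by 23 of the 36, against 23.7% of genes with at least 10 counts. Together the 36 held 346722 counts, or 1.63% of the library (exact binomial 95% interval 1.62% to 1.64%).

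The library carried the markers of ductal epithelium rather than of other secretory cells. Of 8 ductal epithelial markers, 7 had at least 10 counts and the list summed to 4005 CPM, with Krt18, Krt8, Krt7 and Krt19 at 1820, 797, 550 and 418 CPM, while Epcam had 2 counts. Of 8 markers of acinar cells, the enzyme-secreting cells of the pancreas with an extensive ER, 6 were listed at 0 and the list summed to 1.13 CPM. The plasma cell markers Jchain and Mzb1 were at 0, and Sdc1, which epithelial cells also make, stood at 171 CPM. Of 10 fibroblast markers, 5 were at 0 and the list summed to 37.0 CPM, of which Pdgfra made up 34.2 CPM. A listed 0 is not read as absence, because the ATP synthase gene Atp5a1, which nearly every cell uses, also had 0 counts. In bulk RNA, a smaller number of cells of a type and less RNA per cell cannot be told apart.

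**Figure D2:**
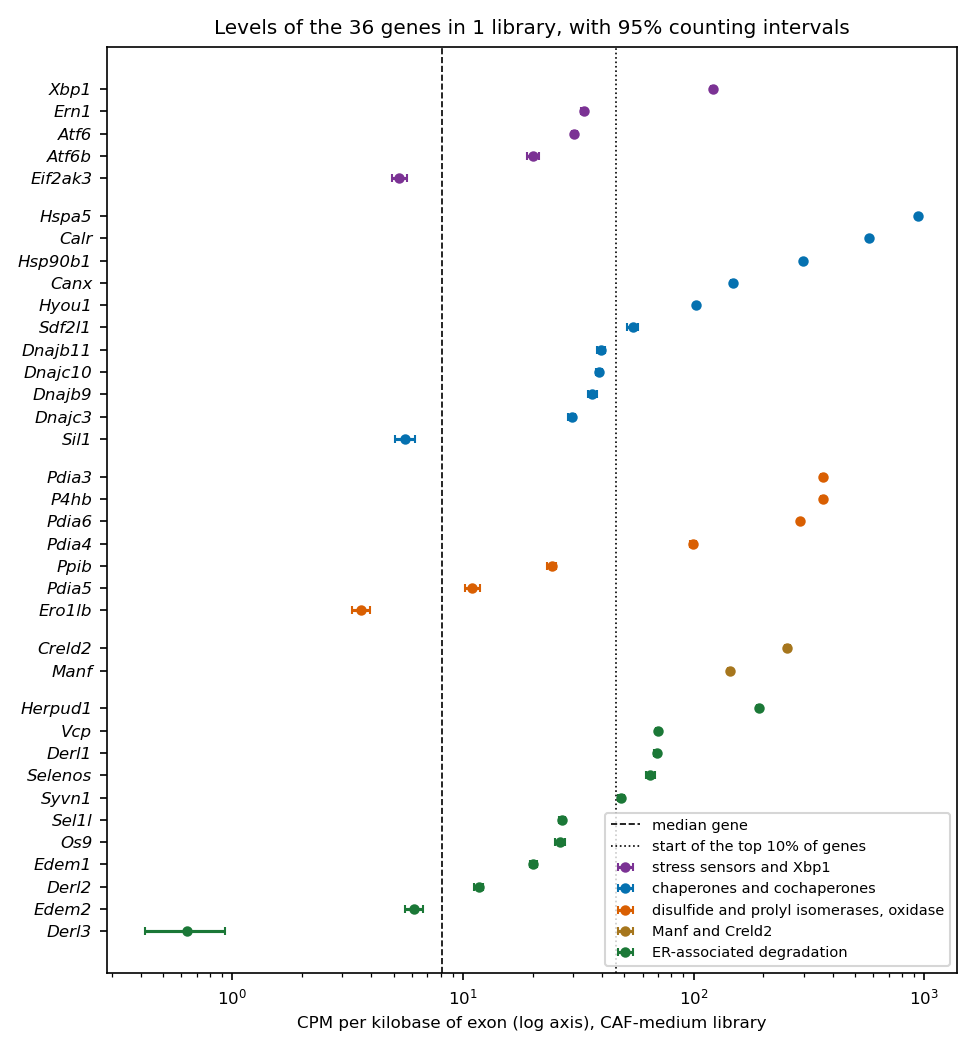
Level of each of the 36 genes in the CAF-medium library, in CPM per kilobase of exon on a log axis, grouped by role; bars are 95% intervals of the count (exact Poisson). The dashed line marks the median gene and the dotted line the start of the top 10.0%, both over genes with at least 10 counts. Beyond the dotted line lie 18 genes, and Eif2ak3, Sil1, Ero1lb, Edem2 and Derl3 lie below the dashed one.

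The stress sensors stood between 5.3 and 33.3 CPM per kb, well below the main chaperones that they are known to control, such as Hspa5 at 935. Ern1, the kinase and RNase that splices Xbp1 mRNA (chr11:106394650-106487852, minus strand), had 5788 counts, or 272 CPM and 33.3 CPM per kb (32.4 to 34.2). Atf6, the membrane-bound transcription factor released by cleavage in the Golgi (chr1:170704674-170867771, minus strand), had 5960 counts and 30.4 CPM per kb (29.6 to 31.1). Atf6b, its relative, had 1181 counts and 20.1 CPM per kb (19.0 to 21.3). Per kb of all exons, Atf6 was 1.51 times Atf6b (1.42 to 1.61, exact binomial 95% interval, as for every ratio between genes below). By the longest transcript the ratio was 1.79 (1.68 to 1.9). Ern1 and Atf6 differed by less, and their order was not settled by length: the ratio of Atf6 to Ern1 was 0.912 (0.879 to 0.945) per kb of all exons but 0.987 (0.952 to 1.02) per kb of the longest transcript.

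Eif2ak3 stood apart from the other sensors. It encodes PERK, the kinase that slows translation by acting on eIF2 alpha (chr6:70844515-70905245, plus strand), and had 679 counts, or 31.9 CPM and 5.3 CPM per kb (4.91 to 5.71). That is below the median gene of 8.14 CPM per kb and above 38.8% of genes with at least 10 counts. Ern1 was 6.29 times Eif2ak3 per kb of all exons (5.8 to 6.82) and 5.54 times (5.11 to 6.01) by the longest transcript. Exons of a gene model on the other strand overlapped 8.0% of the Eif2ak3 exonic bases, and whether counting used strand is not given in the sources used here.

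Xbp1, the transcription factor made active by Ern1 (chr11:5520659-5525893, plus strand), was the highest of this group at 8384 counts, 394 CPM and 121 CPM per kb (119 to 124). It was 4.0 times Atf6 per kb of all exons (3.87 to 4.13) and 4.79 times (4.63 to 4.95) by the longest transcript. Counts per gene do not separate the spliced from the unspliced Xbp1 mRNA, so its activation is not seen in these values.

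Among the chaperones, Hspa5 was the highest in CPM and in CPM per kb by either length. Hspa5 encodes BiP, the HSP70 chaperone of the ER that also holds the sensors inactive (chr2:34771970-34777547, plus strand). It had 84130 counts, 3955 CPM and 935 CPM per kb (929 to 942), ranked 3rd of all entries in CPM, and made up 24.3% of the counts of the 36 genes (24.1% to 24.4%). Calr, the lectin chaperone calreticulin, which binds calcium and newly made glycoproteins (chr8:84841850-84846934, minus strand), followed at 35274 counts and 576 CPM per kb (570 to 582). Hspa5 was 1.62 times Calr per kb of all exons (1.6 to 1.64) and 1.42 times (1.4 to 1.44) by the longest transcript. Hsp90b1, the HSP90 of the ER known as GRP94 (chr10:86690209-86705509, minus strand), had 25551 counts and 298 CPM per kb (294 to 302). Hspa5 was 3.14 times Hsp90b1 per kb of all exons (3.1 to 3.18) and 2.89 times (2.85 to 2.93) by the longest transcript. For Hsp90b1, 15.7% of exonic bases also lay in exons of neighbouring genes, which makes its count less certain than those of Hspa5 and Calr, where there was no overlap.

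**Figure D3:**
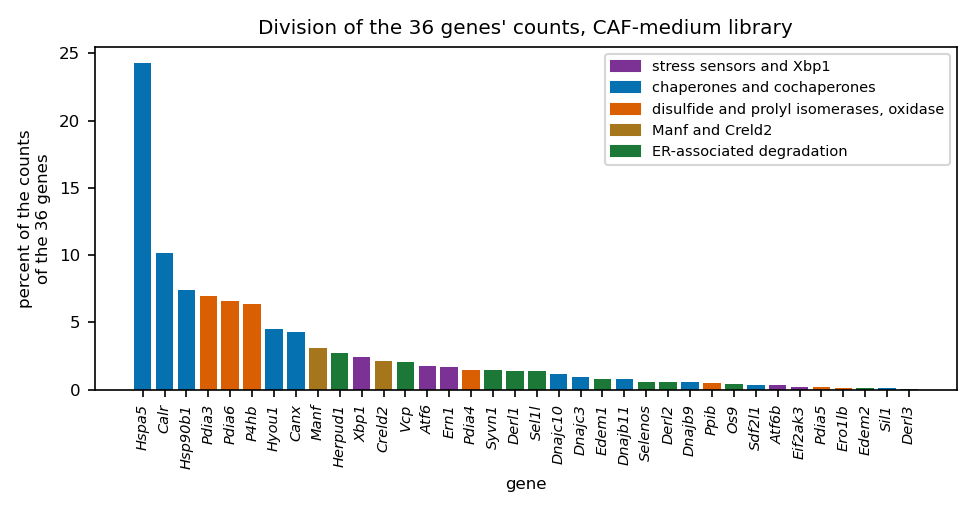
Percent of the counts of the 36 genes held by each gene in the CAF-medium library, coloured by role, from highest to lowest. Hspa5 holds 24.3% and the 10 highest genes together hold 76.4%; counts are not divided by length here.

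The soluble and the membrane-bound lectin chaperones differed. Canx, calnexin, the membrane partner of calreticulin (chr11:50293961-50325673, minus strand), had 14748 counts and 148 CPM per kb (145 to 150). Calr was 3.9 times Canx per kb of all exons (3.82 to 3.97) and 4.69 times (4.6 to 4.78) by the longest transcript. Hyou1 and Sil1 encode nucleotide exchange factors, which release ADP from BiP so that it lets go of its client. Hyou1, which also acts as a chaperone (chr9:44379490-44392369, plus strand), stood at 15750 counts and 102 CPM per kb (101 to 104). Sil1 (chr18:35266396-35499780, minus strand) had 410 counts and 5.61 CPM per kb (5.08 to 6.18), below the median gene. Hyou1 was 18.3 times Sil1 (16.6 to 20.2) per kb of all exons and 13.3 times (12.0 to 14.7) per kb of the longest transcript.

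The J-domain cochaperones of the 36 genes, which deliver clients to BiP and set off its ATPase, lay close together. Dnajb11 (ERdj3) had 2723 counts and 39.6 CPM per kb (38.1 to 41.1). Dnajc10 (ERdj5, which also reduces disulfides of chains bound for degradation) had 4121 counts and 38.7 CPM per kb (37.5 to 39.9). Dnajb9 (ERdj4) had 1969 counts and 36.3 CPM per kb (34.7 to 38.0), and Dnajc3 (p58IPK, an inhibitor of PERK) 3237 counts and 29.6 CPM per kb (28.6 to 30.6). Dnajb11 and Dnajc10 were not told apart by counting error per kb of all exons, at a ratio of 1.02 (0.973 to 1.07), and stood at 1.06 (1.01 to 1.12) per kb of the longest transcript. Hspa5 was 23.6 times the highest of them, Dnajb11, per kb of all exons (22.8 to 24.6). By the longest transcript the ratio was 21.1 (20.4 to 22.0). Sdf2l1, a small partner of these cochaperones, was higher per kb than all 4, with 1281 counts and 54.4 CPM per kb (51.4 to 57.4).

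The disulfide isomerases fell into a high set of 3 genes and a spread of lower ones. Pdia3, which works with calnexin and calreticulin on glycoproteins (chr2:121413775-121438687, plus strand), had 24195 counts and 362 CPM per kb (358 to 367). P4hb, the main protein disulfide isomerase and a subunit of collagen prolyl hydroxylase (chr11:120560298-120573253, minus strand), had 22013 counts and 362 CPM per kb (357 to 367). Pdia6, a BiP-associated isomerase that also acts on IRE1 (chr12:17266545-17284770, plus strand), had 22966 counts and 288 CPM per kb (285 to 292). The order within this set depended on the length used: P4hb was 1.25 times Pdia6 (1.23 to 1.28) per kb of all exons but 0.729 times (0.715 to 0.742) per kb of the longest transcript. Pdia3 and P4hb stood at a ratio of 1.0 (0.984 to 1.02) per kb of all exons and 1.14 (1.11 to 1.16) per kb of the longest transcript.

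Pdia4 (ERp72) had 5067 counts and 99.3 CPM per kb (96.6 to 102), and Pdia5 had 647 counts and 11.0 CPM per kb (10.1 to 11.9), a ratio of 9.05 (8.33 to 9.83), or 5.91 (5.44 to 6.42) per kb of the longest transcript. The oxidase Ero1lb, which passes oxidizing power to P4hb and is the form known from insulin-making cells, had 510 counts and 3.6 CPM per kb (3.3 to 3.93), below the median gene. P4hb was 100.4 times Ero1lb (91.9 to 110) per kb of all exons and 63.95 times (58.6 to 70.0) per kb of the longest transcript. The other oxidase, Ero1l, from the list of further ER genes, was 9.6 times Ero1lb per kb of all exons (8.75 to 10.5). By the longest transcript the ratio was 7.31 (6.67 to 8.04). However, 12.6% of the 64-base windows of the Ero1lb transcript occur in transcripts of other genes too. Ppib, cyclophilin B, a prolyl isomerase of the ER, had 1700 counts and 24.2 CPM per kb (23.0 to 25.4). Exons of Snx22, on the other strand, overlapped 25.0% of its exonic bases.

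Manf and Creld2, ER proteins that are released from stressed cells, were both high. Creld2, a calcium-binding protein (chr15:88819646-88826683, plus strand), had 7399 counts, 348 CPM and 255 CPM per kb (249 to 261). Manf, which binds BiP and slows its release of ADP (chr9:106838312-106891979, minus strand), had 10736 counts, 505 CPM and 143 CPM per kb (141 to 146), with 9.3% of its exonic bases overlapped. Creld2 was 1.78 times Manf (1.73 to 1.83) per kb of all exons and 1.13 times (1.1 to 1.17) per kb of the longest transcript.

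Genes of ER-associated degradation had the widest range as a fold, from 0.637 CPM per kb (Derl3, with 27 counts) to 192 (Herpud1). Without Derl3 the lowest was Edem2 at 6.14 CPM per kb. The fold range was then narrower than that of the chaperones, which ran from 5.61 to 935 CPM per kb. Herpud1, a membrane protein that gathers the degradation complex and is a known target of the stress response (chr8:94386438-94395377, plus strand), was the highest at 9547 counts, 449 CPM and 192 CPM per kb (189 to 196). Syvn1, the ubiquitin ligase HRD1 at the centre of that complex (chr19:6046576-6053712, plus strand), had 5000 counts and 48.4 CPM per kb (47.0 to 49.7). Sel1l, the partner that stabilizes it (chr12:91806043-91849157, minus strand), had 4882 counts and 26.8 CPM per kb (26.1 to 27.6). The counts of Syvn1 and Sel1l were nearly equal. Syvn1 was 1.8 times Sel1l per kb of all exons (1.73 to 1.88) and 1.58 times (1.52 to 1.65) by the longest transcript.

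The lectin Os9, which hands misfolded glycoproteins to Sel1l, stood at 1477 counts and 26.4 CPM per kb (25.1 to 27.8), a ratio of Sel1l to Os9 of 1.02 (0.958 to 1.08) per kb of all exons and 1.38 (1.3 to 1.46) per kb of the longest transcript. Edem1, which trims mannose to mark chains for degradation, had 2769 counts and 20.2 CPM per kb (19.4 to 20.9). Edem2, which starts that trimming, had 452 counts and 6.14 CPM per kb (5.58 to 6.73), below the median gene. Edem1 was 3.29 times Edem2 per kb of all exons (2.98 to 3.64). By the longest transcript the ratio was 2.31 (2.09 to 2.56).

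The derlins, which help to form the channel back to the cytosol, were in the order Derl1, Derl2, Derl3. Derl1 (chr15:57869502-57892448, minus strand) had 4884 counts and 69.0 CPM per kb (67.1 to 71.0). Derl2 (chr11:71007164-71019841, minus strand) had 1997 counts and 11.7 CPM per kb (11.2 to 12.2), and Derl1 was 5.92 times as high (5.61 to 6.23), or 3.37 times (3.19 to 3.55) per kb of the longest transcript. Derl3 (chr10:75893413-75895941, plus strand), the form known from secretory tissues such as the acinar pancreas, was the lowest of all 36 genes, with 27 counts, 1.27 CPM and 0.637 CPM per kb (0.42 to 0.927). Derl2 was 18.3 times Derl3 per kb of all exons (12.5 to 27.9) and 22.4 times (15.3 to 34.0) by the longest transcript.

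Selenos, a selenoprotein that links the derlins to VCP, had 2037 counts and 64.8 CPM per kb (62.1 to 67.7). Vcp, the cytosolic ATPase that pulls chains out of the membrane (chr4:42979963-43000507, minus strand), had 7231 counts and 70.1 CPM per kb (68.5 to 71.7). Its value is uncertain, since 57.4% of the windows of its transcript occur elsewhere too, chiefly in Vcp-rs. Of the 36 genes, 31 had no shared windows and 22 had neither shared windows nor exons overlapped by another gene.

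By role, the medians per kb were 199 CPM for Manf and Creld2, 99.3 for the disulfide group of 7 with Ppib and Ero1lb, 54.4 for the 11 chaperones and cochaperones, 30.4 for the 5 sensors with Xbp1 and 26.8 for the 11 degradation genes. Without division by length, sensors with Xbp1, at a median of 272 CPM, stood above the disulfide group (238) and the chaperones (194). With Xbp1 counted, the order of the sensors against those groups therefore turned with length. Xbp1, Atf6 and Ern1 stood at 394, 280 and 272 CPM, and Atf6b and Eif2ak3 at 55.5 and 31.9. With Xbp1 left out, the median of the sensors in CPM would also lie below both groups. Per kb, the ranges overlapped in every pair of these groups except that both Manf and Creld2 were above all 5 sensors. The chaperone group held 54.6% of the counts of the 36 genes, the disulfide group 22.2% and the degradation group 11.6%. Of the sensors, 4 of 5 were at or above the median gene per kb, as were 10 of 11 chaperones. So were 6 of 7 of the disulfide group and 9 of 11 degradation genes. The background is 50.0% of genes with at least 10 counts.

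Genes with an exact ERSE covered the whole range of levels of the 36 genes. The 10 of them had a median of 201 CPM per kb and ran from 0.637 (Derl3) to 935 (Hspa5), and they held 57.3% of the counts of the 36 genes. The 19 genes with a window but neither form of the element had a median of 33.3 CPM per kb and ran from 5.3 (Eif2ak3) to 362 (Pdia3). Ero1lb at 3.6 and Derl3 at 0.637 CPM per kb held the element and were the lowest of the 36. The element was therefore present at both ends of the order, and no test of the difference in medians was made.

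Other genes of ER protein handling, taken from a list of 100 that holds none of the 36, were at lower median levels. Of the 100, 99 had an entry, 95 had at least 10 counts and 82 were at or above the median gene per kb, with a median of 20.1 CPM per kb, against 44.0 for the 36 genes. The oligosaccharyltransferase, which attaches glycans to entering chains, had the highest median, 66.4 CPM per kb, above that of the 36 genes. Of its genes, 10 of 10 were at or above the median gene. Its subunits Rpn1, Rpn2 and Stt3a stood at 90.9, 71.1 and 61.6 CPM per kb. The KDEL receptors and coat proteins, which return escaped chaperones to the ER, had 8 of 8 at or above the median gene. Their median of 48.8 CPM per kb was also above that of the 36 genes. Tmed2, Copa and Copb1 stood at 67.7, 58.3 and 45.1 CPM per kb. For Tmed2, 27.0% of windows were also found in other genes.

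The translocon and signal peptidase genes, through which chains enter, had 15 of 16 at or above the median gene and a median of 40.5 CPM per kb. Ssr3, a subunit of the translocon-associated complex, was the highest of the 99 at 319 CPM per kb, followed in CPM by Srpr at 149 and Sec61a1 at 67.0 CPM per kb. Further degradation factors had 15 of 15 at or above the median gene and a median of 20.5, with Nploc4, a VCP cofactor, at 57.7 and Ubxn4 at 39.4 CPM per kb. Glucosidases and lectins, which run the calnexin cycle and glycoprotein transport, had 7 of 9 and a median of 14.8, with the glucosidase II subunits Ganab and Prkcsh at 61.9 and 60.0 and the cargo lectin Lman2 at 29.7 CPM per kb.

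Further sensors and regulators had 11 of 13 at or above the median gene and a median of 12.1 CPM per kb. Tmbim6, a membrane protein that restrains IRE1, stood at 147, the ligase Rtcb, which rejoins Xbp1 mRNA, at 53.4 and Mbtps1, the protease that makes the first cut in ATF6, at 10.4 CPM per kb. Further disulfide isomerases and oxidases had 9 of 14 and a median of 9.18, with Tmx1, Txndc5 and Ero1l at 46.9, 42.0 and 34.6 CPM per kb. The prolyl isomerases had 5 of 7 and a median of 13.2, with Fkbp9, Fkbp2 and Fkbp10 at 34.7, 28.1 and 24.7 CPM per kb. Among ER calcium genes, 2 of 7 were at or above the median gene, namely the calcium pump Atp2a2 at 171 and the channel Itpr3 at 14.6 CPM per kb, while Itpr2 stood at 5.21. The 4 genes listed at 0 were Rcn1, Pdilt, Creb3l1 and Clgn, and a count of 0 allows up to 0.141 CPM, or 3 counts, which is a one-sided limit, unlike the intervals above, and covers counting error only.

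**Figure D4:**
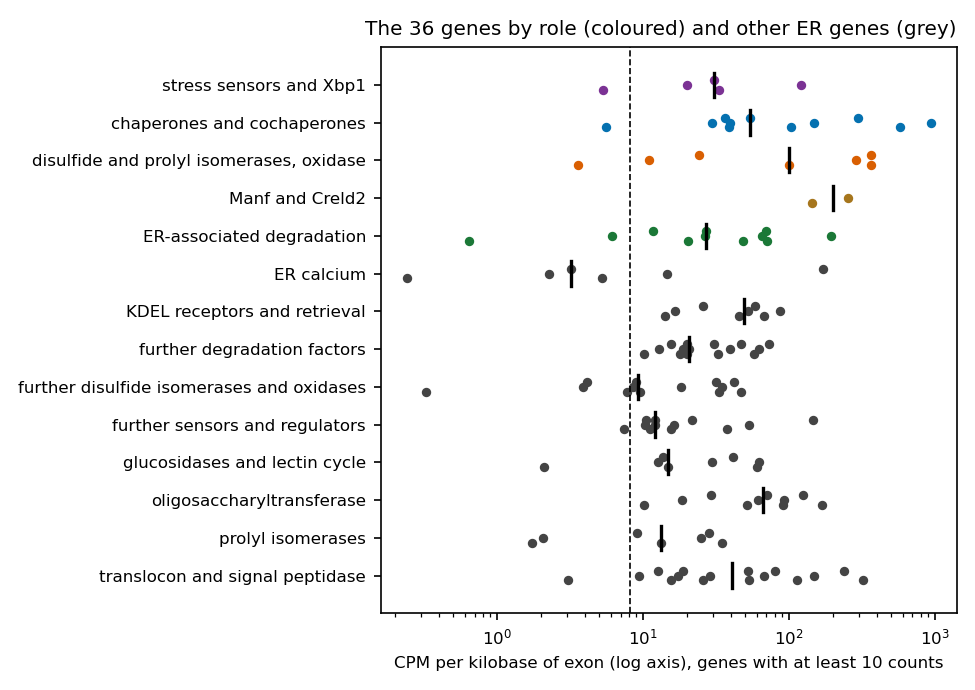
Levels in the CAF-medium library in CPM per kilobase of exon on a log axis, for the 36 genes by role (coloured points) and for other ER genes by group (grey points, genes with at least 10 counts). Thick black marks are medians over all genes of a group with an entry, including the 4 at 0 that a log axis cannot show. The dashed line is the median gene at 8.14. The disulfide group of the 36, which includes Ppib and Ero1lb, has a median of 99.3. The group of further disulfide isomerases and oxidases has a median of 9.18.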

How the data were processed

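RNA was harvested in Trizol and 2 ug of total RNA went into each library, per the labels. The submitters' processing notes list StringTie, HISAT2 2.1.0 and the build mm10; what each did, how reads were counted and with which gene models is not given in the sources used here. Each deposited value is a raw count, a whole number for 1 gene symbol, left unscaled by the authors. In the table, 1 value column matched no library by name and was not used, so the planned ratio of media was not computed. The members and lists were chosen with earlier results of these data known. CPM used the library total, and 4 entries with repeated symbols stayed out of ranks. Positions, exon lengths and overlaps came from GENCODE M21 (GRCm38), where 21900 symbols matched. Shared windows are 64-base pieces, every 16 bases, of the longest transcript found in transcripts of other genes. Promoter windows came from RefSeq (GRCm38.p6), whose starts can differ from those of GENCODE. Of 32 windows of these genes, 25 had bases 1 to 30 after the start in a GENCODE transcript of the gene. Positions have no base 0. All 36 genes are reported; of the further list, the 3 highest in CPM per group are named, except 1 that is not reported here. Counting intervals and the motif search were tested on simulated data. Protein tails were planned but not analysed here. Intervals came from scipy 1.17.1 and tables from pandas 2.3.3 with numpy 2.4.6, under Python 3.11.15; figures were drawn with matplotlib 3.10.9.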

Additional observations from a re-analysis of the deposited data

How the results depend on the processing

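The number of the 36 genes at or above the median gene stayed between 30 and 36 when the median gene was taken over all entries, over genes with 100 counts or more, or per kilobase by either length. Their median of 229.6 CPM became 265.2 CPM when the 100 highest genes were left out of the total. That setting rescales every gene by the same factor, so levels relative to other genes did not change. Their share of all counts, 1.63%, was 1.648% without genes of the mitochondrial genome in the total and 1.235% without Hspa5. Of 10 pairs of role groups, 8 kept their order of medians per kilobase of all exons. With Xbp1 counted among them, the sensors fell below the disulfide and chaperone groups. The 10 genes with an exact ERSE became 6 on the gene strand alone and 26 with CCACG alone; 2 settings chosen after seeing the data gave 16 with 1 mismatch and 23 with CCAAT and CCACG anywhere in the window. The planned comparison of media and the search of protein tails were not run. No paired analysis was possible because 1 library was used. Counting error was widest for Derl3, with 27 counts, and it also left the order of Dnajb11 and Dnajc10 unsettled per kilobase of all exons; the order of P4hb and Pdia6 turned with the length used.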

Other observations

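The exact ERSE of Creld2 was also the exact ERSE of its neighbour Alg12, a mannosyltransferase that builds the glycan attached to proteins in the ER. The genes run in opposite directions on chromosome 15, and the element at 88819520 to 88819538 lay 126 to 108 bases before the start of Creld2 and 220 to 202 bases before that of Alg12. Creld2 stood at 254.7 CPM per kb and Alg12 at 21.7 CPM per kb, from 7399 and 1089 counts. The ratio was 11.7 (exact binomial 95% interval 11.0 to 12.5) per kb of all exons and 10.6 per kb of the longest transcript. Alg12 was singled out after its position was seen.

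Outside the 36 genes, 27 genes held an exact ERSE in the promoter window, and 19 of them had an entry in the count table. Of these, 8 reached 10 counts. Their median was 4.52 CPM per kb, and 3 were at or above the median gene, namely Alg12 at 21.7, Zfp57 at 20.0 and Hnrnpa3 at 13.3 CPM per kb. None was in the list of 100 other ER genes. These names were also chosen after their values were seen.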
